A study of Solanum lycopersicum with 36 samples.

Results

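A group of 5 tomato genes for proteins of the photosynthetic antenna, taken from those with large falls under salt, were followed through a time course of salt stress. They were CAB12 (gene ID 101256006 in the table), Cab-1A (104645884), Cab-1D (104645883), Cab-3C (108491835) and the gene LOC101265617 (101265617), which make up 5 of the 32246 genes in the deposited table. The genes were chosen by their falls from 0 h under salt, out of the antenna pathway set of the study, with no stated threshold. All values against 0 h below are therefore a description with no test.

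Leaves were collected from grafted seedlings (GSs) and from self-rooted, nongrafted seedlings (NGSs) after 0, 6, 12, 24, 48 and 96 h in 175 mM NaCl. The 12 groups had 3 biological replicates each. The salt-sensitive variety Zhongza 9 and the salt-tolerant rootstock QZ-006 were the plant materials, joined by split grafting, and all seedlings grew in aerated Hoagland solution. The NGSs were not grafted onto their own roots, so the rootstock and the graft itself cannot be told apart. The 0 h libraries were the only unstressed ones. The study's methods give a single morning hour for sampling, and the hour at which the 6 and 12 h leaves were taken is not given beyond that. If they were taken 6 and 12 h after the 0 h leaves, salt and the hour of the day cannot be told apart at these time points. The time points of 24, 48 and 96 h lie whole days after 0 h.

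Antenna proteins bind chlorophyll a and b and pass the light energy they absorb to the reaction centres of photosystem I and photosystem II in the thylakoid membrane. Their genes sit in the nucleus as a family of many close copies, are among the most abundant transcripts of a green leaf, and are known in many plants to follow light and the circadian clock. Cab-1A, Cab-1D and Cab-3C encode Lhcb1-type proteins, the main building block of the photosystem II antenna (LHCII). CAB12 encodes a protein of the photosystem I antenna (LHCI), and LOC101265617 has no symbol in the RefSeq table. In the gene order of that table, Cab-1A and Cab-1D lie in a cluster with a further copy, CAB1B, with 1 protein-coding gene between Cab-1A and Cab-1D and 1 between Cab-1D and CAB1B. Cab-3C likewise lies 1 protein-coding gene away from LOC101267774.

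The values were read as FPKM, that is, reads scaled by the length of the gene and by a denominator common to the library. The libraries held 15232031 to 26659975 reads on genes (median 22753950), and each of the antenna genes had 2 to 46851 reads in a library. The leaf markers of the Rubisco small subunit (3 genes) stood at 714 to 36765 FPKM in every library. Reads made up 74.2 to 124.5% of the denominator of the FPKM values, with the lowest shares in the NGSs at 12 h (74.2, 81.4 and 77.0%). How reads shared by near-identical copies were counted is not given in the sources used here. Values of Cab-1A, Cab-1D and Cab-3C may therefore include reads of related copies or lack shared reads. In whole leaves, fewer cells of a type and less RNA per cell cannot be told apart.

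CAB12 had the deepest low of the 5 genes. At 0 h it stood at 433, 167 and 67.3 FPKM in the GSs and at 439, 238 and 379 FPKM in the NGSs. The 2 types of seedlings overlapped, and the GS libraries were spread over a 6.44-fold range. At 6 h it was at 0.82, 8.23 and 1.98 FPKM in the GSs and at 116, 16.3 and 27.2 FPKM in the NGSs. All NGS libraries were thus above all GS libraries at 6 h. At 12 h the order was the other way round, with 5.12, 4.58 and 8.63 FPKM in the GSs and 0.421, 0.537 and 1.52 FPKM in the NGSs. At 24 h the GSs had 4.87, 2.44 and 0.384 FPKM and the NGSs 0.72, 0.213 and 0.0802 FPKM, which were only 16, 5 and 2 reads. The mean of the NGSs at 24 h was 1042-fold below that at 0 h, and that of the GSs 86.7-fold. At 48 h CAB12 was at 80.3, 32.8 and 14.2 FPKM in the GSs and at 96.2, 2.32 and 4.77 FPKM in the NGSs. The ranges of GSs and NGSs overlapped at 48 h, where a single NGS library was high. At 96 h it was at 5.44, 15.7 and 142 FPKM in the GSs and at 3.99, 190 and 39.2 FPKM in the NGSs. Within the NGSs at 96 h the highest library was thus 47.6-fold above the lowest, and no neighbouring pair among the 12 groups, ordered by level, was free of overlap. CAB12 was the gene that remained lowest at the end, with a log2 change (of FPKM + 1) from 0 h to 96 h of -2.78 (GSs) and -3.34 (NGSs). The GSs at 96 h overlapped those at 0 h, with a change of -4.04 to -1.80 when any 1 library was left out. The NGSs at 96 h did not overlap theirs.

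The Lhcb1-type gene Cab-1A reached its low at 12 h in both types of seedlings. At 0 h it stood at 526, 149 and 216 FPKM in the GSs and at 302, 183 and 314 FPKM in the NGSs. At 6 h the GSs had 7.39, 33.2 and 22.2 FPKM, whereas the NGSs had 391, 112 and 286 FPKM. The NGSs at 6 h thus overlapped those at 0 h, and all were above the GSs. At 12 h it was at 3.31, 3.56 and 5.2 FPKM in the GSs and at 0.469, 1.85 and 3.28 FPKM in the NGSs, a mean 73.8-fold and 143-fold below 0 h. At 24 h the values were 13.7, 16.1 and 3.66 FPKM in the GSs and 6.46, 0.682 and 3.63 FPKM in the NGSs. The types of seedlings overlapped at 24 h. At 48 h Cab-1A was back at 416, 252 and 210 FPKM in the GSs and at 240, 44.2 and 117 FPKM in the NGSs, and at 96 h at 76.1, 142 and 479 FPKM and at 73.8, 551 and 225 FPKM. At both late time points the ranges of the GSs and NGSs overlapped each other and those at 0 h. When the 12 groups were ordered by level, the only neighbours that did not overlap were the NGSs at 48 h and the GSs at 6 h below them.

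Cab-1D, which lies near Cab-1A, was above it in every library at 6 h, with a ratio within the library of 2.01 to 2.99 in GSs and 3.45 to 5.31 in NGSs. At 0 h its values were 575, 150 and 244 FPKM in the GSs and 361, 209 and 287 FPKM in the NGSs. At 6 h the GSs were at 14.9, 99.3 and 50.7 FPKM while the NGSs were at 1349, 592 and 1140 FPKM. The NGSs at 6 h were the highest of the 12 groups and lay above every library of the 0 h groups. At 12 h Cab-1D was at 8.53, 20.3 and 22.7 FPKM in the GSs and at 5.09, 2.48 and 2.76 FPKM in the NGSs, and at 24 h at 12.2, 10.4 and 2.14 FPKM and at 11.6, 0.287 and 7.5 FPKM. The types of seedlings were apart at 12 h and overlapped at 24 h. At 48 h the values were 451, 231 and 221 FPKM in the GSs and 332, 59.1 and 162 FPKM in the NGSs, and at 96 h 91.8, 103 and 433 FPKM and 83.2, 483 and 256 FPKM, which overlapped at both times.

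Cab-3C was lowest at 24 h in both types of seedlings. At 0 h it was at 543, 169 and 188 FPKM in the GSs and at 387, 229 and 396 FPKM in the NGSs. At 6 h it was at 31.6, 332 and 140 FPKM in the GSs and at 1953, 523 and 2224 FPKM in the NGSs. The 3 NGS libraries at 6 h were all above the NGS libraries at 0 h. At 12 h the GSs still had 119, 119 and 251 FPKM, whereas the NGSs had 23.9, 46.0 and 18.9 FPKM. The GSs at 6 and 12 h overlapped the widely spread GSs at 0 h, at log2 changes of -1.17 and -0.76, and the NGSs at 12 h did not overlap theirs, at -3.52. At 24 h Cab-3C was at 19.7, 13.8 and 5.73 FPKM in the GSs and at 9.01, 1.21 and 6.1 FPKM in the NGSs, the lowest group. By 48 h the values were 226, 197 and 158 FPKM in the GSs and 150, 43.4 and 70.2 FPKM in the NGSs, with all GS libraries above all NGS libraries. At 96 h they were 109, 135 and 417 FPKM and 109, 630 and 324 FPKM, and the types of seedlings overlapped.

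LOC101265617 had the shallowest low. It was at 509, 147 and 273 FPKM in the GSs and at 643, 479 and 553 FPKM in the NGSs at 0 h, and the latter was its highest group. At 6 h it was at 11.8, 40.3 and 38.5 FPKM in the GSs, its lowest group, and at 345, 117 and 233 FPKM in the NGSs. The GSs were thus lowest at the first time point, and the NGSs reached their low later. At 12 h the values were 86.9, 82.4 and 116 FPKM in the GSs and 31.5, 36.9 and 31.5 FPKM in the NGSs, with a 16.8-fold lower mean in the NGSs than at 0 h. At 24 h they were 152, 49.6 and 49.0 FPKM and 104, 34.6 and 53.0 FPKM, which overlapped. At 48 h they were 382, 263 and 271 FPKM and 329, 140 and 255 FPKM, and at 96 h 75.8, 98.4 and 300 FPKM and 54.5, 291 and 167 FPKM, again overlapping. The NGSs at 48 and 96 h lay below all NGS libraries of 0 h (log2 changes of -1.28 and -1.99), and the GSs overlapped theirs.

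**Figure D1:**
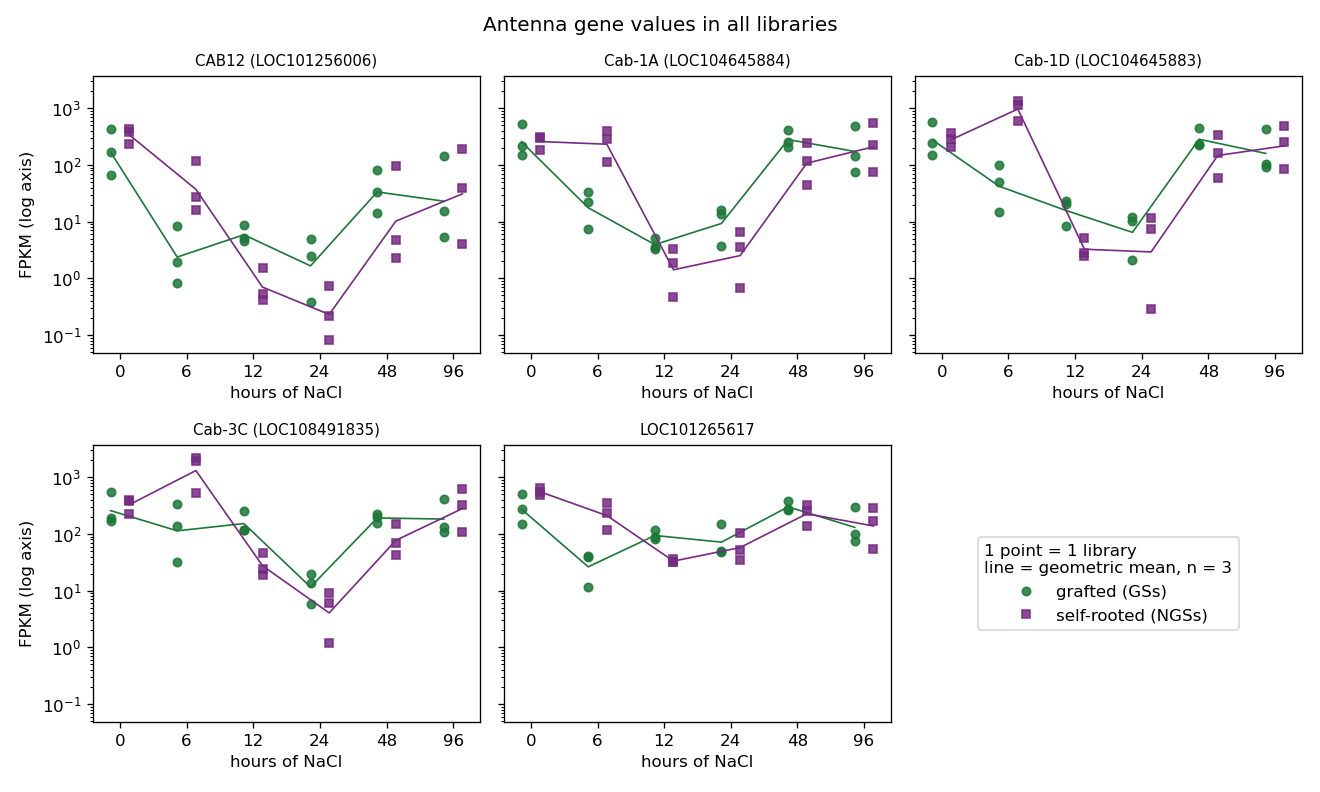
FPKM (log axis) of each antenna gene in every library against the hours of NaCl, with GSs as circles, NGSs as squares and a line through the geometric mean of the 3 libraries. CAB12 drops to 0.0802 FPKM in an NGS library at 24 h. In the NGSs at 6 h, Cab-1D lies above all its 0 h libraries, and Cab-3C above those of the NGSs only.

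The genes did not follow a single course of decline. In the NGSs at 6 h, Cab-1D and Cab-3C were above all 0 h libraries of the NGSs (log2 changes of 1.79 and 2.003, where 26.6% of all tested genes were higher without overlap), Cab-1A was near 0 h (-0.16), and CAB12 and LOC101265617 were below (-3.15 and -1.39). In the NGSs, the 3 libraries at 12 h and those at 24 h lay below all 0 h libraries for 5 of 5 genes, where 28.6% and 28.2% of all tested genes did so. In the GSs this held for 4 of 5 genes at 12 h and 4 of 5 at 24 h, beside 24.6% and 16.1% of all tested genes. Among the 13 other antenna genes described below, the same held for 11 and 12 in the NGSs at 12 and 24 h. In the GSs it held for 5 and 12 of them.

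The description as the antenna genes with the largest falls held only in part. Among 18 antenna genes (these and 13 others found by symbol or named in the study's text), CAB12, Cab-1A, Cab-1D and Cab-3C had the 4 lowest log2 changes at 24 h in both types of seedlings. LOC101265617 took place 10 (GSs) and place 9 (NGSs) at that time. At 12 h Cab-3C took place 11 (GSs) and place 8 (NGSs). CAB5, an LHCII gene outside the set, stood at -3.59 (GSs) and -4.97 (NGSs) at 12 h, below both Cab-3C and LOC101265617. CAB4, also outside the set, was below both too, at -3.31 (GSs) and -5.14 (NGSs). In the GSs at 12 h, LHCP, CAB-10A and CAB13 (-1.81 to -1.72) were also below both. The 5 genes together made up 5.66 to 10.41% (GSs) and 10.1 to 11.62% (NGSs) of the summed FPKM of the 18 antenna genes at 0 h. At 24 h the share was 1.4 to 3.29% and 1.94 to 2.15%, and at 96 h 3.49 to 8.03% and 4.03 to 9.71%.

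**Figure D2:**
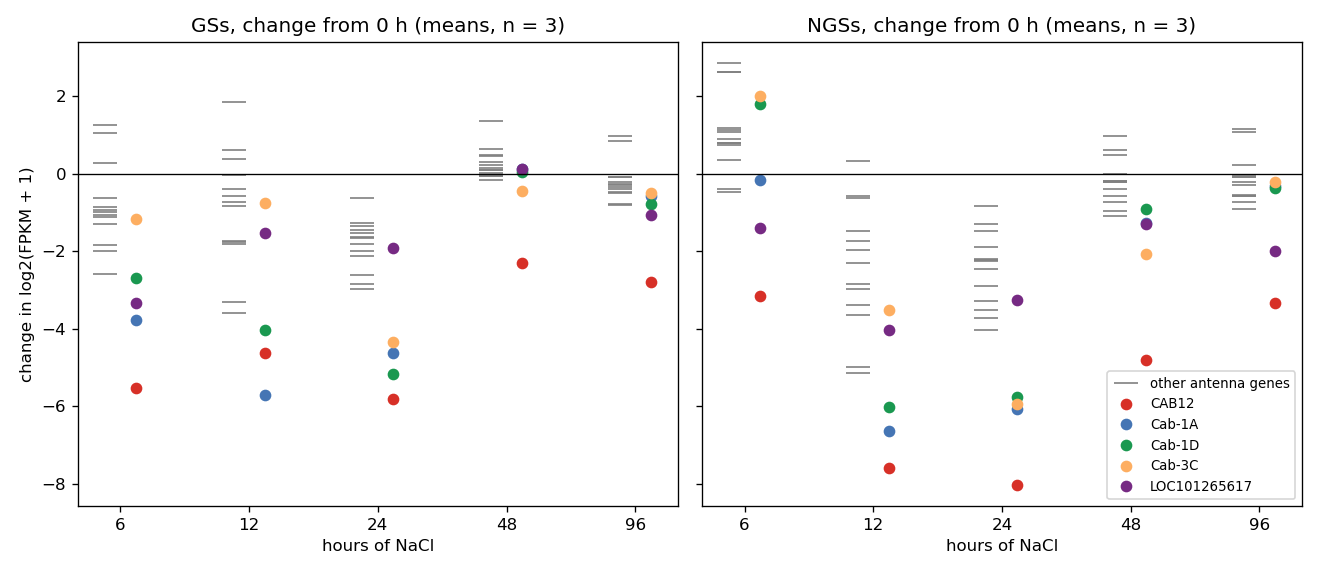
Change in log2(FPKM + 1) from 0 h (difference of group means, n = 3) in the GSs (left) and NGSs (right) against the hours of NaCl, with the 5 genes as coloured circles and the 13 other antenna genes as grey dashes. At 24 h 4 circles lie below all dashes in both types of seedlings, and LOC101265617 lies among the dashes.

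The neighbouring copies in the gene clusters had other levels. CAB1B was at 622 to 1633 FPKM in the GSs at 0 h and at 1351 to 1808 FPKM at 12 h, when Cab-1A was at 3.31 to 5.2 FPKM. The ratio of Cab-1A to CAB1B within a library was 0.134 to 0.322 in the GSs at 0 h and 0.00215 to 0.00288 at 12 h, with no overlap. In the NGSs the ratio of Cab-1D to CAB1B was 0.262 to 0.37 at 0 h and 0.00182 to 0.0111 at 24 h. Copies that share a cluster thus differed widely in FPKM within the same library, with the limit on shared reads given above. The ratio of Cab-3C to its neighbour LOC101267774, annotated in the study as a further chlorophyll a/b-binding protein gene, was 0.509 to 0.616 in the NGSs at 0 h and 0.0141 to 0.0254 at 24 h.

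The balance among the Lhcb1-type genes moved with the time point. The FPKM ratio of Cab-3C to Cab-1A within a library was 0.871 to 1.13 (GSs) and 1.25 to 1.28 (NGSs) at 0 h. It was 4.28 to 9.99 and 4.69 to 7.78 at 6 h, and 33.5 to 48.3 and 5.77 to 51.0 at 12 h. At 24 h it was back at 0.859 to 1.57 and 1.4 to 1.77, although both genes were far below their 0 h levels. The libraries of the GSs at 6 and 12 h and of the NGSs at 6 and 12 h were thus all above those of the other time points. At 48 h the ratio was 0.544 to 0.783 and 0.6 to 0.982, and at 96 h 0.87 to 1.43 and 1.14 to 1.48. The ratio of Cab-3C to LOC101265617 was 4.48 to 9.55 in the NGSs at 6 h and 0.035 to 0.115 at 24 h. Ratios of 2 genes in a library do not depend on how libraries were scaled.

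**Figure D3:**
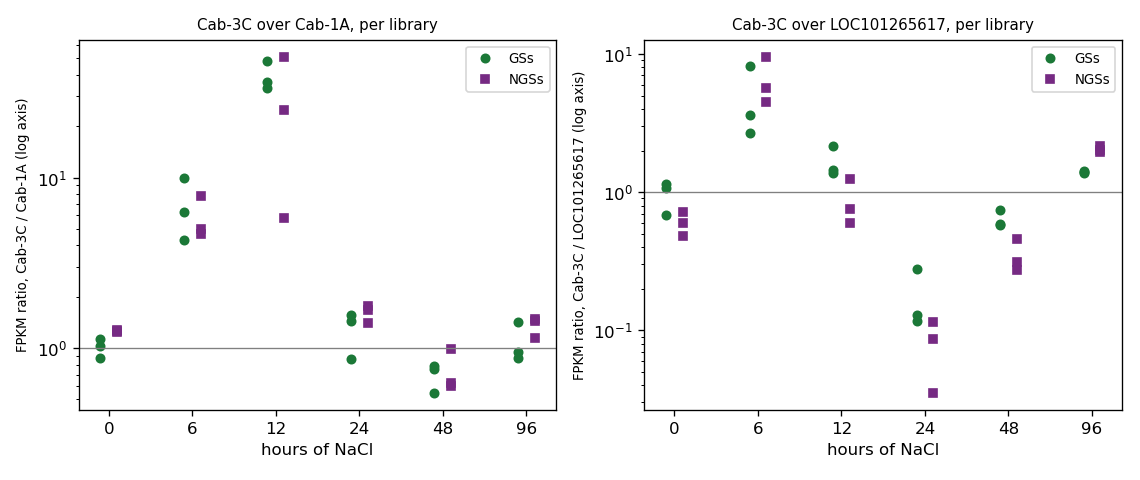
FPKM ratio within each library (log axis) of Cab-3C to Cab-1A (left) and of Cab-3C to LOC101265617 (right) against the hours of NaCl, with GSs as circles, NGSs as squares and a grey line at a ratio of 1. The ratio to Cab-1A reaches 33.5 to 48.3 in the GSs at 12 h and is 0.859 to 1.57 at 24 h.

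The comparison of GSs with NGSs at the same time point did not itself pick the 5 genes from the study's antenna set. However, the study does not state which comparison gave that set. It reports the antenna pathway as enriched between GSs and NGSs, so the set may itself rest partly on that difference. The libraries compared also enter the falls from 0 h that chose the 5 genes. The size of the differences and the counts beside all tested genes may partly reflect these choices, which was not tested. The comparison was tested with limma on log2(FPKM + 1) over 20090 genes. A gene was called where the |log2 difference| was 1 or more and the false discovery rate (FDR) was under 0.05. At 6 h Cab-1A, Cab-1D, Cab-3C and LOC101265617 were lower in the GSs, so that 4 of 5 were called where 2.41% of all tested genes were called lower. The largest difference was that of Cab-1D, at -4.48 (SE 0.82, adjusted p = 0.00203 by limma), or 18.7-fold between means. Cab-1A differed by -3.63 (SE 0.76, adjusted p = 0.00524), Cab-3C by -3.51 (SE 0.76, adjusted p = 0.00634) and LOC101265617 by -2.95 (SE 0.59, adjusted p = 0.00406). CAB12 differed by -3.39 (SE 1.17, 95% interval -5.78 to -0.99) and missed the threshold with an adjusted p of 0.0693 by limma. It passed in a fit of all libraries with the replicate block, at an adjusted p of 0.0331 by limma. That block treats same-numbered libraries as pairs at every time point, which their deviations bear out only at 6 h. In 5 of 5 genes every GS library was below every NGS library at 6 h, beside 15.7% of all tested genes. The direction was shared by the rest of the family, as all 13 other antenna genes had non-overlapping lower libraries in the GSs and 10 were called lower. Their median difference was -1.73 (-3.37 to -1.07), and that of all tested genes -0.02. Among these others, CAB5 had the lowest value (-3.37) and LOC101267774 the highest (-1.07). The 3 Rubisco small subunit genes were at -1.12 to -1.45, with 0 called by limma (adjusted p of 0.0547 to 0.157, and 3 of 3 at an unadjusted p under 0.05). Their part in the result was not tested.

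The calls at 6 h rest partly on the spread borrowed from other groups and on 1 library. With a fit of only the 6 h libraries, 0 of 5 genes were called (adjusted p of 0.105 to 0.128 by limma), and without GS replicate 1, the lowest library in all 5 genes, only Cab-1D was called. Without NGS replicate 1, Cab-3C lost its call (adjusted p = 0.0506 by limma). When any 1 library was left out, the log2 difference at 6 h was -4.05 to -2.59 for CAB12, -4.16 to -3.05 for Cab-1A, -5.08 to -3.75 for Cab-1D, -4.28 to -2.60 for Cab-3C and -3.37 to -2.39 for LOC101265617. Both ends for Cab-3C came from the GSs, with -2.60 without replicate 1 and -4.28 without replicate 2.

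At 12 h the order was the opposite. In 5 of 5 genes every GS library was above every NGS library in FPKM, beside 11.5% of all tested genes. The limit given above on how the antenna set was chosen holds for this count too. The same held for 13 of 13 other antenna genes (median difference 1.63) and 2 of 3 Rubisco small subunit genes. Cab-1A was apart only narrowly, with 3.31 FPKM (78 reads) in the lowest GS library and 3.28 FPKM (103 reads) in the highest NGS library. The reads of these libraries made up 88.2 and 77.0% of the denominator, so their order turns round on library totals. However, 0 of 5 genes were called by limma, beside 0.0398% of all tested genes called higher, and 0 by voom on the recovered reads. At an unadjusted p, 3 of the 5 were under 0.05. Cab-3C had the largest difference, at 2.43 (SE 0.76, 95% interval 0.87 to 3.99, adjusted p = 0.139 by limma), followed by CAB12 and Cab-1D at 1.97 each, LOC101265617 at 1.48 and Cab-1A at 0.92. The reads of the NGSs made up 74.2 to 81.4% of the FPKM denominator at 12 h, and those of the GSs 84.0 to 93.4%. The part of this in the result was not tested, and on library totals as the scale the difference of Cab-3C was 2.25.

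Before salt and from 24 h onwards, 0 of 5 genes were called between the types of seedlings by limma or by voom, and 0 had an unadjusted p under 0.05. At 0 h the log2 differences were -1.01 to -0.01 (adjusted p 0.266 to 0.997 by limma, with 5.07% of all genes called). At 24 h the differences were 0.31 to 1.44 (adjusted p 0.456 to 0.879 by limma, with 0.0249% of all genes called), and at 48 h 0.40 to 1.496 (adjusted p 0.497 to 0.842, with 0.0498% of all genes called). At 48 h only Cab-3C did not overlap between the types, where 11.1% of all tested genes were higher without overlap. At 96 h the differences were -0.62 to -0.08, with an adjusted p of 1 for each by limma and 0.00996% of all genes called. The intervals were wide: at 48 h CAB12 was at 1.496 with an SE of 1.17. These values therefore leave room for differences of several fold.

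**Figure D4:**
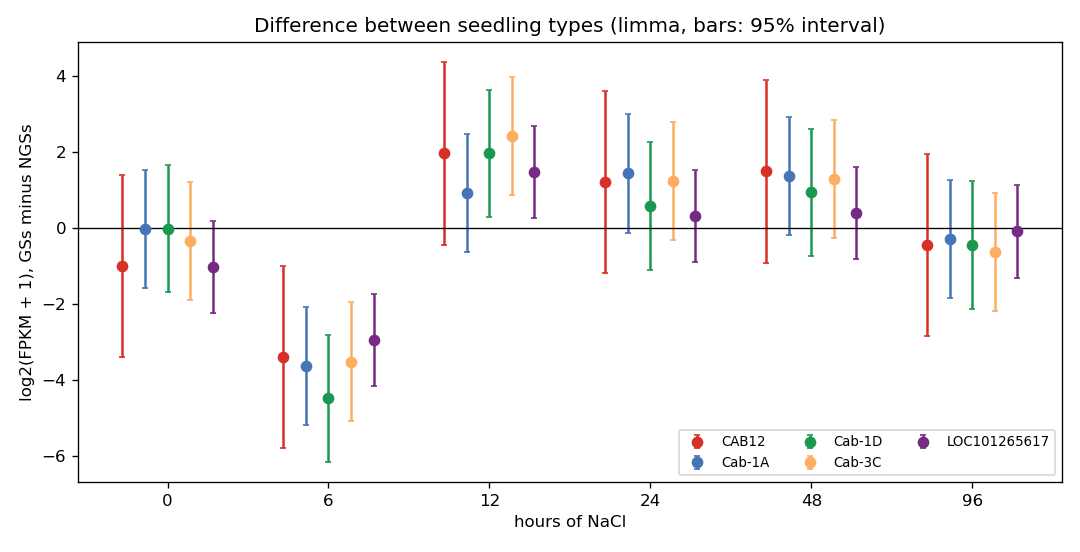
Difference in log2(FPKM + 1) between GSs and NGSs with its 95% interval (limma, 3 libraries in each group) for each antenna gene at each time point, with a line at 0. All 5 intervals lie below 0 at 6 h, and those of Cab-1D, Cab-3C and LOC101265617 lie above 0 at 12 h before adjustment for multiple testing.

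The means of 48 and 96 h were also compared within each type of seedling, with the spread estimated over all 12 groups. In the GSs 0 of 5 genes were called by limma and 0 had an unadjusted p under 0.05 (7.24% of all genes called), with log2 differences of -1.19 to -0.07. In the NGSs 0 of 5 were called (9.29% of all genes called), and 1 had an unadjusted p under 0.05, Cab-3C, at 1.86 (SE 0.76, adjusted p = 0.0694 by limma). By voom, 0 of 5 were called in either type. The changes from 48 to 96 h in the GSs minus those in the NGSs were -1.93 to -0.485, with an adjusted p of 0.759 to 0.925 by limma (a test added after the values were seen, with 0.00498% of all genes called). The NGS call of Cab-3C was gained on library totals as the scale (1.997, adjusted p = 0.0451 by limma), without NGS replicate 10 of 48 h (2.33, 0.0481) and without NGS replicate 13 of 96 h (2.53, 0.0254). LOC101265617 in the GSs was called only without GS replicate 15 of 96 h (-1.79, adjusted p = 0.0433 by limma).

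Within a group, the 5 genes deviated together from library to library. The residual SD of log2(FPKM + 1) over the 12 groups was 1.52 for CAB12, 1.06 for Cab-1D, 0.98 for Cab-1A and Cab-3C and 0.77 for LOC101265617, beside a median of 0.29 over all tested genes. CAB12 was thus more variable between replicates than 99.7% of tested genes, and the steadiest of the 5, LOC101265617, than 94.7%. A wide spread was not particular to the 5 genes. The limma SE of a difference between 2 groups was 0.70 for LOC101253380 and 0.60 for CAB5, beside 0.59 for LOC101265617. The remaining antenna genes outside the 5 were at 0.37 to 0.57. Over 36 libraries, the deviations from the group mean correlated at a Pearson r of 0.745 to 0.896 in the 10 pairs among the 5 genes, which share libraries and their scaling. In 8 of the 12 groups the same library was highest in all 5 genes, and in 7 the same library was lowest in all 5. With the median of the other 13 antenna genes, r was 0.424 to 0.738, and with that of the 3 Rubisco small subunit genes 0.65 to 0.845. With the reads as a share of the denominator, r was 0.488 to 0.593. The part of these in the spread was not tested.

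**Figure D5:**
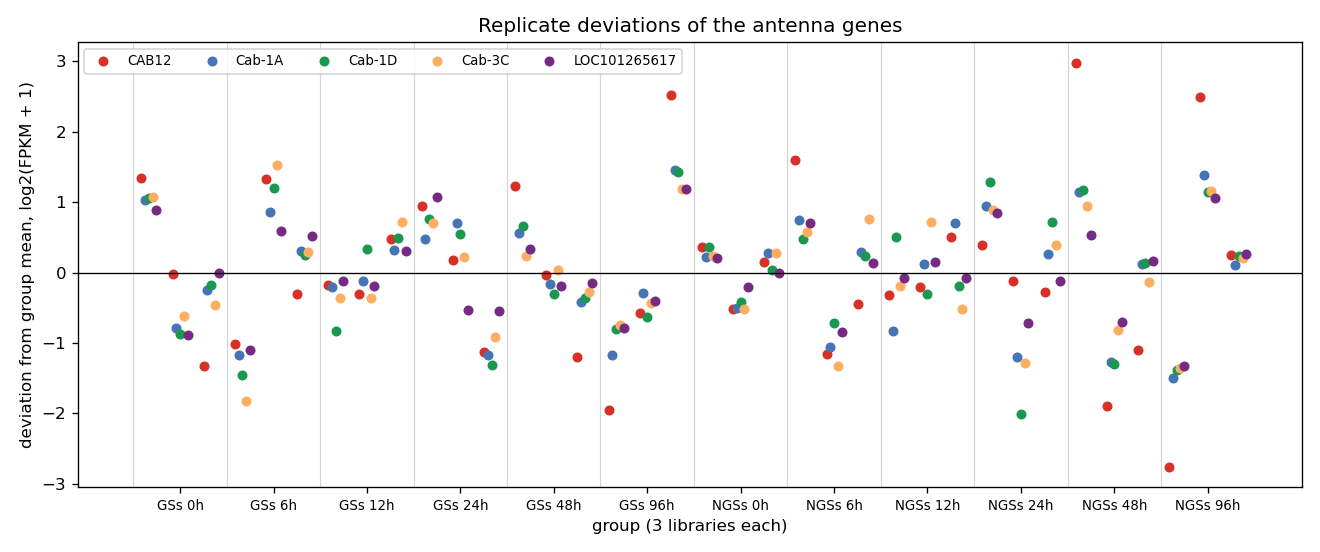
Deviation of log2(FPKM + 1) from the group mean in each of the 36 libraries (3 in each group) for the 5 antenna genes. In the GSs at 6 h and in both types at 96 h the same library is highest and the same lowest for all 5.

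By group mean, the genes most like each of the 5 over the 12 groups were found by Pearson r. For Cab-1A they were CAB5 (0.986), LOC101265886 (0.97) and LOC101268123 (0.962), and for Cab-1D the same 3 genes in another order, at 0.963, 0.987 and 0.966. For Cab-3C they were LOC101253380 (0.975), a photosystem I antenna gene of the study's list, LOC101265555 (0.952) and LOC101245121 (0.941). For CAB12 they were LOC101254625 (0.96), LOC101264974 (0.957) and LOC101267797 (0.955), and for LOC101265617 LOC101255222 (0.962), SPA (0.962) and LOC101256723 (0.959), with no antenna gene among them. Among the 5 genes themselves, r was highest between Cab-1A and Cab-1D (0.959) and lowest between Cab-3C and LOC101265617 (0.594).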

How the data were processed

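RNA of tomato leaves was sequenced in 36 libraries. Per the labels and the study's methods, the authors filtered the reads and mapped them to genome SL 2.0, and the submitters' processing notes name HISAT2 2.0.5, featureCounts 1.5.0-p3 and DESeq2 1.16.1, among others. The unit is not named in the sources used here, and the deposited values were read as FPKM from their form. Their denominators equal median-of-ratios size factors times a constant (largest deviation 0.021%). Reads were recovered from the FPKM steps (99.67% of values whole within 0.01 reads). The annotation release and strandedness are not given in the sources used here.

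The 20090 genes that reached 1 FPKM in 3 or more libraries entered limma 3.58.1 (lmFit, eBayes with trend) as log2(FPKM + 1), in 1 model of 12 group means (24 residual degrees of freedom). Benjamini-Hochberg adjustment was made separately for the 8 comparisons. On this scale, changes of low genes are understated. Groups came from the sample titles. The named genes are the 5 antenna genes, the antenna genes named in the study's text or by symbol (with the highest and lowest), and for each of the 5 genes the 3 others with the highest r. CAB1B was named after its values were seen, as a neighbour. The genes and lists were chosen with earlier results of these data known. Libraries of GSs and NGSs with the same label number deviated together at 6 h (r of 0.124, 0.411 and 0.428). They did not do so throughout at the other time points (at 96 h, r of 0.427, -0.394 and -0.264), and the sample titles state no pairs. The replicate block still paired same-numbered libraries at all time points, so its spread also rests on these. Alternatives were a pseudocount of 0.1, no filter, only the libraries compared, library totals as the scale, voom on the recovered reads, the replicate block and leaving out each library. The reference table belongs to another assembly and was used for symbols and gene order only. Sequences were not analysed here. R 4.3.3, Python 3.11.15, NumPy 2.4.6, pandas 2.3.3 and matplotlib 3.10.9 were used.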

Additional observations from a re-analysis of the deposited data

How the results depend on the processing

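At 6 h, 4 of 5 genes were called between GSs and NGSs in the fit of all libraries, 0 with only the libraries compared, 5 with the replicate block (CAB12 -3.39, adjusted p = 0.0331 by limma), and 1 to 4 when any 1 library was left out. Without GS replicate 1 Cab-1A, Cab-3C and LOC101265617 lost their call (adjusted p of 0.0603, 0.0824 and 0.0553 by limma), and without NGS replicate 1 Cab-3C did (0.0506). The block changed no other call. Between 48 and 96 h, 1 gene was called in the NGSs with library totals as the scale (Cab-3C, 1.997, adjusted p = 0.0451 by limma), and leaving out 1 library gave 0 to 1 in each type of seedling. These were LOC101265617 in the GSs without replicate 15 of 96 h (-1.79, adjusted p = 0.0433) and Cab-3C in the NGSs without replicate 10 of 48 h (2.33, 0.0481) or replicate 13 of 96 h (2.53, 0.0254). The other comparisons stayed at 0 calls under every alternative run. Leaving out 1 library turned the sign of differences that were not called. At 0 h the ranges were -0.53 to 0.38 for Cab-1A and -0.54 to 0.43 for Cab-1D, and at 24 h -0.41 to 1.25 for Cab-1D and -0.22 to 0.74 for LOC101265617. At 96 h they were -1.82 to 0.81 for CAB12, -1.02 to 0.42 for Cab-1A, -1.16 to 0.13 for Cab-1D and -0.75 to 0.45 for LOC101265617. From 48 to 96 h they were -1.74 to 0.50 for CAB12 and -0.66 to 0.31 for Cab-3C in the GSs, and -0.09 to 1.25 for Cab-1D in the NGSs. With a pseudocount of 0.1 the change of CAB12 from 0 h in the NGSs was -8.71 at 12 h and -9.89 at 24 h, since its values there are near the pseudocount, and with library totals that of LOC101265617 was -3.56 at 12 h. The cause of the other changes was not tested. With 3 libraries a group and a large spread between replicates, differences of several fold at 0, 24, 48 and 96 h could not be told from 0, and CAB12 at 24 h rests on as few as 2 reads.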

Other observations

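CAB5, an antenna gene outside the 5, had a course close to that of Cab-1A at a higher level. In the GSs it was at 927, 279 and 407 FPKM at 0 h and at 38.0, 22.8 and 64.1 FPKM at 12 h. In the NGSs it was at 647, 325 and 495 FPKM at 0 h and at 7.78, 16.4 and 21.1 FPKM at 12 h. At 12 h all GS libraries were thus above all NGS libraries, as in the 5 genes. Its FPKM by 48 h was 817, 513 and 649 (GSs) and 627, 257 and 409 (NGSs), and the types overlapped.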
